A study of Mus musculus with 8 samples.

Results

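The 10 genes described here encode transcription factors and cofactors that set monocyte lineage and fate: Spi1, Cebpa, Cebpb, Cebpd, Gfi1, Cbfa2t3, Nr4a1, Klf2, Klf4 and Pou2f2. They were taken by symbol from a table of 56748 genes. The set was chosen by role and by the measured knockout to wild-type change, since Pou2f2 was included as the gene with the strongest fall, so that the differences between genotypes are given below as a description and not as a test. The filter on low counts kept 11222 genes, among them 9 of the 10, and Gfi1 did not pass. RNA came from classical monocytes with high surface Ly6C (Ly6Chigh), which were sorted from the spleens of Olfr2 knockout (KO) and Olfr2 wild-type (WT) mice. All animals, WT included, were taken at day 7 after induction of an aneurysm, so that no library shows the state without aneurysm. There were 4 KO libraries and 4 WT libraries, made by oligo-dT priming, template switching and PCR amplification. The study concerns the olfactory receptor gene Olfr2 and the recruitment of monocytes in abdominal aortic aneurysm. Strain, sex and age are not in the labels used here. Nor do they say whether libraries come from different animals, and p-values therefore stand for the spread among the libraries alone.

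Monocytes arise from bone marrow progenitors under PU.1, the product of Spi1, and C/EBP alpha, which together open and activate myeloid genes. KLF4 takes part in the step to the monocyte, while GFI1 is a repressor that favours the granulocyte branch. In the mouse, Ly6Chigh monocytes can convert to Ly6Clow nonclassical monocytes, which need NR4A1, and C/EBP beta and KLF2 are known to act at enhancers of Nr4a1. ETO2, the product of Cbfa2t3, is a corepressor of complexes with TAL1 and LMO2, and OCT2, the product of Pou2f2, is an octamer-binding factor best known from B cells.

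The promoters of Nr4a1, Cebpb, Klf4 and Klf2 are shown because, among 8 of the 10 genes that had promoter entries in RefSeq (build GRCm38.p6), they shared the letters TGACGC. These letters begin with the half-site of the cyclic AMP response element, which many immediate-early genes carry. The motif was chosen after the sequences were read. Each sequence runs from 250 bases before the annotated start to 50 bases after it, 5′ to 3′ on the strand of the gene, with TGACGC or its reverse complement in capitals. The windows were chr15:101266596-101266895 on the plus strand for Nr4a1, chr2:167688665-167688964 on the plus strand for Cebpb, chr4:55532426-55532725 on the minus strand for Klf4 and chr8:72318812-72319111 on the plus strand for Klf2. The Nr4a1 window lies within the annotated span of the gene, 101254269 to 101274795, and not at its first base.
Nr4a1: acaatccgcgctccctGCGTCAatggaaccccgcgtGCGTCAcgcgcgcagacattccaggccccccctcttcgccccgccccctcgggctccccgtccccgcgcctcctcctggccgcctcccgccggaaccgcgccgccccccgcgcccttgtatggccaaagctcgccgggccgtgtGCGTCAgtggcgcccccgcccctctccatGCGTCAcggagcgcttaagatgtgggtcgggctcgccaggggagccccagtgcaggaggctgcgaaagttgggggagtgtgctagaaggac
Cebpb: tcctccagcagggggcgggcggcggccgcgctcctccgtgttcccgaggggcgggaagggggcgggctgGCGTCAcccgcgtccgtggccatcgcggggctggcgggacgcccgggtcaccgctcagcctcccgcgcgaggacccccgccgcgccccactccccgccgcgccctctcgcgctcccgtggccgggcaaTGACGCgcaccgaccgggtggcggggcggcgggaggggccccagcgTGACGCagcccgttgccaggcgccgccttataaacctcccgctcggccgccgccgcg
Klf4: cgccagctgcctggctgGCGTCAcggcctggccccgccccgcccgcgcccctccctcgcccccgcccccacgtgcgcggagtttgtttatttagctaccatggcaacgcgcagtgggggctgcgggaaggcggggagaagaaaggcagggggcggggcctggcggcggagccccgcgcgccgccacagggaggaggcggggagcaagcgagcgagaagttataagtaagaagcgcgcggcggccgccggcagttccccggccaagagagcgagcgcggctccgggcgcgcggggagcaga
Klf2: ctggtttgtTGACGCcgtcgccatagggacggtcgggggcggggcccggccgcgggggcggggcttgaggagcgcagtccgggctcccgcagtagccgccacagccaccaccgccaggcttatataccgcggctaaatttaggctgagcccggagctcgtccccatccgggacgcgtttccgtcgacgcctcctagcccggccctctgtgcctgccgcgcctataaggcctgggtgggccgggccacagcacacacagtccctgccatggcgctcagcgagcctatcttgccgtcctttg

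The Nr4a1 window held 4 matches, the Cebpb window 3, and the Klf4 and Klf2 windows 1 each. Over all 32851 promoter entries, read on both strands, 7.40% held TGACGC at least once, 0.0578% at least 3 times and 0.00609% at least 4 times. The Nr4a1, Cebpb, Klf4 and Klf2 windows had a GC content of 72.3%, 80.7%, 74.3% and 69.3%, against a median of 52.7% over all entries. Neither these shares nor those given below for other letters were matched for GC content. In the Cebpb window 1 match shares letters with a CACCC box, the core bound by KLF factors. A match is a string of letters and not a measured site. The Pou2f2 window is shown because this gene had the largest difference between genotypes. It lies at chr7:25132411-25132710 on the minus strand, within the annotated span of the gene, and its capitals mark the reverse complement of GAGGAA, the core that PU.1 and other ETS factors bind.
Pou2f2: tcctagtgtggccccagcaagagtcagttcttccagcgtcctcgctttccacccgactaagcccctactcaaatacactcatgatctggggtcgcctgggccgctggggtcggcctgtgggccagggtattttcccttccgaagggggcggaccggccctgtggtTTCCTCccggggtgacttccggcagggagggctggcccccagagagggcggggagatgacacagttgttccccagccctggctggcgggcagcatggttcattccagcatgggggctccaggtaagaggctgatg

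GAGGAA stood once in the Pou2f2 window and in 28.3% of all promoter entries. The octamer ATGCAAAT, the motif of OCT2 itself, was in 0 of the 10 entries of these genes and in 1.74% of all entries. The C/EBP letters TTGCNNAA were in the Gfi1 entry alone among the 10, against 10.8% of all entries. CACCC was in 7 of the 10 entries and in 57.5% of all, and the GC box GGGCGG in 7 of the 10 and in 35.7% of all. The NR4A1 response element AAAGGTCA was in 0 of the 10 and in 1.51% of all.

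Total counts lay between 17258427 and 21728794 in KO libraries and between 16111725 and 19048245 in WT libraries. A count of 3, the limit that a count of 0 allows, equals 0.139 to 0.185 CPM (counts scaled to library size with TMM) in KO and 0.147 to 0.186 CPM in WT, for counting error only. Olfr2 itself had 0 counts in all 8 libraries, and thus gave no check of the genotype labels. Over all 11222 genes tested, 119 differed between KO and WT (1.06%, edgeR quasi-likelihood test, adjusted p under 0.05), 25 higher (0.223%) and 94 lower (0.838%). This count was 0 when WT 1, WT 3, KO 2 or KO 3 was left out, 3 without WT 4, 64 without KO 1, 235 without KO 4 and 515 without WT 2. The balance of directions also turned, to 139 higher and 96 lower without KO 4, 143 and 101 with title numbers as a block, and 73 and 26 within libraries KO 1, KO 2, WT 1 and WT 2 alone. The 10 Ly6Chigh monocyte markers all passed the filter on low counts. They summed to between 116482 and 134458 CPM in KO and between 104520 and 121358 CPM in WT. Most of each sum was Lyz2, which is also in the list of PU.1 and C/EBP targets below, so that the sum says little about the other markers. Ly6c2, the gene of the sorting antigen, was at 5195 ± 791 CPM in KO and 4572 ± 359 CPM in WT (SD, n = 4 each). Libraries KO 1 and KO 2 stood apart, with 2393 and 3704 CPM of 12 neutrophil markers. KO 3 and KO 4 held 814 and 630 CPM of them, and WT libraries 292 to 618 CPM. Outside KO 1 and KO 2, most of this sum was Mmp8, which is also in the list of classical monocyte genes below. Mmp8 alone made up 638 CPM of it in KO 3, 515 CPM in KO 4 and 230 to 524 CPM in WT. The sum in these libraries therefore says little about neutrophils. Ngp, another of the 12, reached 108 CPM in KO 1 and 86.8 CPM in KO 2, but at most 1.54 CPM elsewhere (WT 1). Results are therefore also given without KO 1 and KO 2. In bulk RNA, fewer cells of a type and less RNA per cell cannot be told apart.

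Per length, the genes differed widely in level and kept the same order by mean level in both genotypes. Spi1 was highest, with 163 ± 23.4 CPM per kb of exon in KO and 201 ± 5.99 in WT (SD, n = 4 each). Cebpb followed with 67.0 ± 35.1 CPM per kb in KO and 155 ± 9.28 in WT, then Klf2 with 30.0 ± 9.68 and 49.1 ± 21.5 in KO and WT. Next came Cebpd at 21.4 ± 6.39 CPM per kb in KO and 31.6 ± 8.33 in WT, Nr4a1 at 7.53 ± 1.84 and 12.5 ± 3.38, and Cebpa at 3.78 ± 0.95 and 5.64 ± 1.85. Klf4, Cbfa2t3 and Pou2f2 were the scarcest of the 9, at 0.49, 0.098 and 0.016 CPM per kb in KO and 1.22, 0.46 and 0.23 CPM per kb in WT.
Neighbours in this order were not all distinct. In KO the libraries of Cebpb and Klf2 overlapped, as did those of Klf2 and Cebpd. In WT the libraries of Klf2 and Cebpd overlapped, as did those of Nr4a1 and Cebpa and those of Cbfa2t3 and Pou2f2. Every other pair of neighbours was separate in that genotype.

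**Figure D1:**
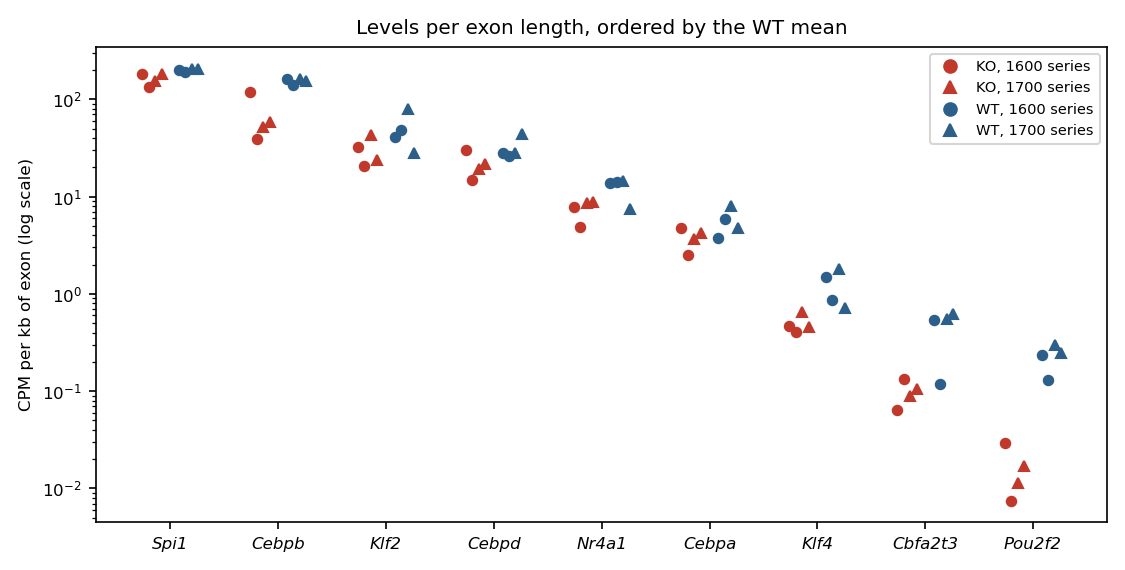
Level of 9 genes in every library, in CPM per kb of exon on a log scale, ordered by the WT mean from left to right, with KO libraries left of WT libraries for each gene. Circles are the 1600 number series and triangles the 1700 number series, and Spi1 is highest while Pou2f2 is lowest in both genotypes. Gfi1, at 0 in all WT libraries, is not drawn.

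The master regulator of the lineage differed least. Spi1 (ENSMUSG00000002111; GRCm38 chromosome 2, 91082390 to 91115756, plus strand) had 493, 363, 414 and 490 CPM in KO 1 to 4, against 542, 519, 549 and 556 CPM in WT 1 to 4. The genotypes did not overlap, and the WT libraries lay close together, with a coefficient of variation of 2.98% against 14.3% in KO. The log2 change of KO minus WT was -0.30 ± 0.12 (SE).

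Of the 3 C/EBP genes, each a gene of 1 exon, Cebpb differed most. Cebpb (chromosome 2, 167688915 to 167690418, plus strand), the C/EBP member that Ly6Clow monocytes need in the mouse, had 178, 59.2, 77.4 and 88.7 CPM in KO 1 to 4, against 244, 213, 240 and 232 CPM in WT 1 to 4. All KO libraries lay below all WT libraries, and KO 1 was the KO library nearest to WT. The log2 change was -1.20 ± 0.30 (SE), and the spread in KO, a coefficient of variation of 52.4%, was wider than the 6.01% in WT. Cebpb overlaps exons of Peds1 on the other strand, which had 41.6 to 57.9 CPM in KO and 49.7 to 63.1 CPM in WT. The strand setting of the counts is not given in the sources used here, so that reads of both genes cannot be told apart.

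Cebpa (chromosome 7, 35119293 to 35121928, plus strand), which granulocyte and monocyte progenitors need, had 12.5, 6.64, 9.67 and 11.1 CPM in KO 1 to 4, against 9.86, 15.7, 21.2 and 12.7 CPM in WT 1 to 4. The genotypes overlapped, with 2 of 4 KO libraries below the lowest WT library. Its log2 change was -0.57 ± 0.25 (SE). Cebpd (chromosome 16, 15887286 to 15891031, plus strand), an inflammation-induced member of the family, had 112, 55.5, 72.1 and 80.9 CPM in KO 1 to 4, against 105, 98.7, 105 and 165 CPM in WT 1 to 4. KO 1 lay within the WT range and the other 3 KO libraries below it, and the log2 change was -0.56 ± 0.22 (SE). Cebpd shares exon sequence with Spidr, and Cebpa with the antisense gene Gm45091, so that their reads have the same limit. The ratio of Cebpb to Cebpa per length was 25.04, 15.6, 14.0 and 14.0 in KO 1 to 4 and 43.4, 23.8, 19.8 and 32.1 in WT 1 to 4, and KO 1 lay above WT 2 and WT 3. The ratio of Cebpb to Spi1 was 0.647, 0.293, 0.335 and 0.324 in KO 1 to 4 and 0.807, 0.735, 0.784 and 0.748 in WT 1 to 4, with no overlap.

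The 2 repressors were scarce. Gfi1 (chromosome 5, 107716657 to 107726036, minus strand) had 2 counts in KO 1 and 0 counts in KO 2 to 4 and in all 4 WT libraries, and was not detectable at this depth beyond the limit above. Cbfa2t3 (chromosome 8, 122625141 to 122699109, minus strand) had 9, 18, 16 and 19 counts in KO 1 to 4, against 88, 20, 86 and 84 counts in WT 1 to 4. In CPM it had 0.54, 1.11, 0.75 and 0.88 in KO 1 to 4, against 4.52, 0.98, 4.65 and 5.21 in WT 1 to 4. WT 2 lay within the KO range, and the other 3 WT libraries lay far above every KO library. The log2 change was -2.22 ± 0.45 (SE), and the summed counts of 62 in KO and 278 in WT gave a ratio of 0.219 per depth (exact 95% interval 0.163 to 0.289, counting error only). An antisense gene, Gm10612, overlaps its exons.

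Among the factors of conversion to the nonclassical state, Nr4a1 (chromosome 15, 101254269 to 101274795, plus strand), the nuclear receptor that Ly6Clow monocytes require, had 27.7, 16.9, 30.4 and 30.7 CPM in KO 1 to 4, against 48.9, 49.7, 50.7 and 26.1 CPM in WT 1 to 4. WT 4 lay within the KO range, and the other 3 WT libraries were close to each other and above all KO libraries. The log2 change was -0.73 ± 0.23 (SE). Klf2 (chromosome 8, 72319033 to 72321656, plus strand), a quiescence factor of leukocytes, had 60.2, 38.4, 78.3 and 44.3 CPM in KO 1 to 4, against 75.8, 89.0, 146 and 52.3 CPM in WT 1 to 4. The genotypes overlapped, with 2 KO libraries below the lowest WT library, and the log2 change was -0.71 ± 0.33 (SE).
Klf4 (chromosome 4, 55527143 to 55532466, minus strand), a factor of monocyte differentiation, had 1.44, 1.23, 1.96 and 1.39 CPM in KO 1 to 4, against 4.57, 2.65, 5.51 and 2.17 CPM in WT 1 to 4. The genotypes did not overlap, although WT 4 stood only a little above KO 3. The log2 change was -1.30 ± 0.32 (SE), from 116 counts in KO and 280 in WT, a ratio of 0.406 per depth (exact 95% interval 0.324 to 0.506, counting error only).

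Pou2f2 (ENSMUSG00000008496; chromosome 7, 25087344 to 25179726, minus strand) had 4, 1, 2 and 3 counts in KO 1 to 4, against 38, 22, 45 and 33 counts in WT 1 to 4. In CPM this was 0.24, 0.06, 0.09 and 0.14 in KO 1 to 4 and 1.95, 1.08, 2.43 and 2.05 in WT 1 to 4. The genotypes were far apart, and KO 2 and KO 3 lay below the level of 3 counts. The summed counts of 10 in KO and 138 in WT gave a ratio of 0.0711 per depth (exact 95% interval 0.0333 to 0.135, counting error only), and the fitted log2 change was -3.76 ± 0.46 (SE). The next lowest changes of all tested genes were -2.69 for Kmt2d, a histone methyltransferase gene, -2.58 for the gene model Gm38062 and -2.44 for Lars2, a mitochondrial leucyl-tRNA synthetase gene. Kmt2d and Gm38062 were near the limit of counting in KO, at means of 0.12 and 0.16 CPM. Lars2 did not pass (edgeR adjusted p = 0.163), and its genotypes overlapped, with 11.4 CPM in WT 2 and 13.8 CPM in KO 2. With the offsets described below the changes were -1.63 for Kmt2d, -2.88 for Gm38062 and -2.43 for Lars2.

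**Figure D2:**
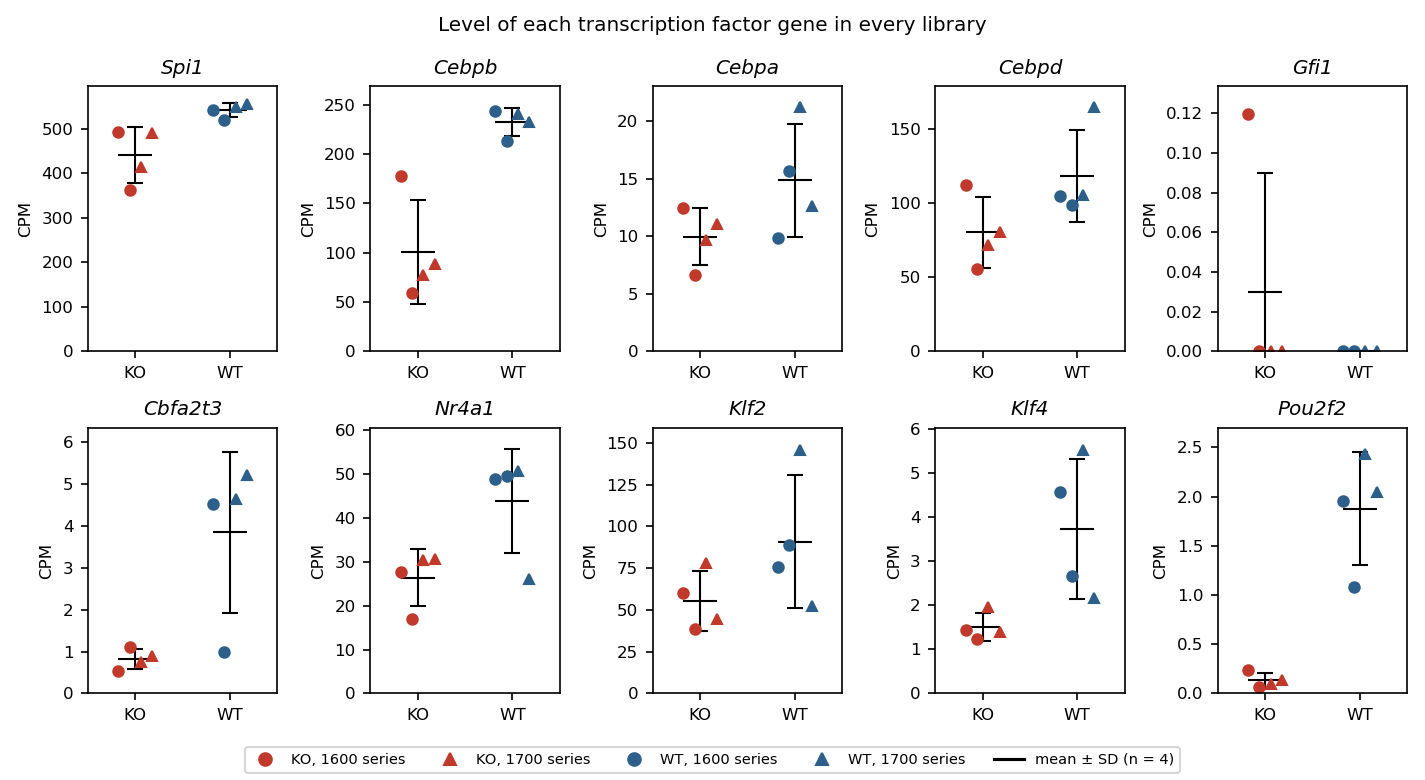
Level of each of the 10 genes in CPM on a linear axis, with the 4 KO libraries left of the 4 WT libraries, and bars for the mean ± SD. Circles are the 1600 number series and triangles the 1700 number series. Spi1, Cebpb, Klf4 and Pou2f2 show no overlap between genotypes, while WT 4 of Nr4a1, at 26.1 CPM, and WT 2 of Cbfa2t3, at 0.98 CPM, lie among the KO libraries.

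Groups that did not overlap, with KO lower, were thus found for 4 of the 9 tested genes, against 6.06% of all tested genes. With edgeR at an adjusted p of 0.05, Pou2f2 and Cbfa2t3 were called lower, 2 of 9 against 0.838% of all tested genes. DESeq2 called 5 of 9, adding Cebpb, Nr4a1 and Klf4, against 4.09% of all tested genes lower, while limma-voom called 0 of 9 and 0 genes in all. At an unadjusted p under 0.05 limma-voom had 8 of 9, against 2371 of the 11222 tested genes in either direction. In edgeR 8 of 9 were lower at an unadjusted p under 0.05, against 12.0% of all tested genes. The edgeR count of 2 became 0 when WT 1, WT 3, KO 2 or KO 3 was left out, 1 without WT 4 or KO 4, and 3 without WT 2. Since this contrast chose the genes, nothing is read from these counts. All 9 changes were below 0, with a median of -0.73 on the log2 scale, where 50.4% of all tested genes were below 0 with a median of -0.00.

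The KO libraries were not alike among themselves. KO 2 was the lowest KO library in 8 of the 9 genes, all except Cbfa2t3, where it was the highest. KO 1 was the highest KO library in 5 genes, Pou2f2, Spi1 and the 3 C/EBP genes. In WT, WT 3 was highest in 5 genes, Pou2f2, Cebpa, Nr4a1, Klf2 and Klf4, and WT 2 was lowest in 5, Pou2f2, Cebpb, Cebpd, Spi1 and Cbfa2t3. Without KO 1 and KO 2 all 9 changes were again below 0, with a median of -0.62 against -0.01 for all tested genes. The change of Cebpb was then -1.47 ± 0.15 (SE) and that of Klf4 -1.14 ± 0.41. This fit leaves out KO 1, the KO library whose genes of high GC content were within the WT range, as given below. It keeps KO 3 and KO 4, where such genes were lower than in WT. Cebpb is itself rich in GC, and with offsets for length and GC content over all 8 libraries its change was smaller, at -0.73 ± 0.16 (SE). No fit used the offsets without KO 1 and KO 2. The part of GC content in the larger change of Cebpb without these 2 libraries was not tested.

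Transcript length and GC content moved with the genotype over the whole table. The 10% of tested genes with the highest GC content had a median log2 change of -0.37, with 88.5% of them below 0, and the 10% longest had a median of -0.36, with 75.4% below 0. Measured per library against the other genes, the longest genes were at -0.30, -0.22, -0.19 and -0.13 in KO 1 to 4 on the log2 scale. In WT 1 to 4 they were at 0.27, -0.12, 0.33 and 0.35, so that WT 2 lay next to the KO libraries. The genes of highest GC content were at 0.10, -0.29, -0.35 and -0.24 in KO 1 to 4. In WT 1 to 4 these genes were at 0.14, 0.24, 0.33 and 0.08. KO 1, the KO library nearest to WT in Cebpb, thus lay within the WT range of GC-rich genes. Its part in the differences between KO libraries was not tested. The longest transcripts of all 9 tested genes had a GC content above the tested median of 49.5%. Cebpb, at 67.2%, Cebpa, at 62.6%, Klf2, at 61.6%, and Spi1, at 58.9%, were above the 90% quantile of 57.5%. Pou2f2, with 7095 bases, and Cbfa2t3, with 7645 bases, were above the length quantile of 6079 bases.

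**Figure D3:**
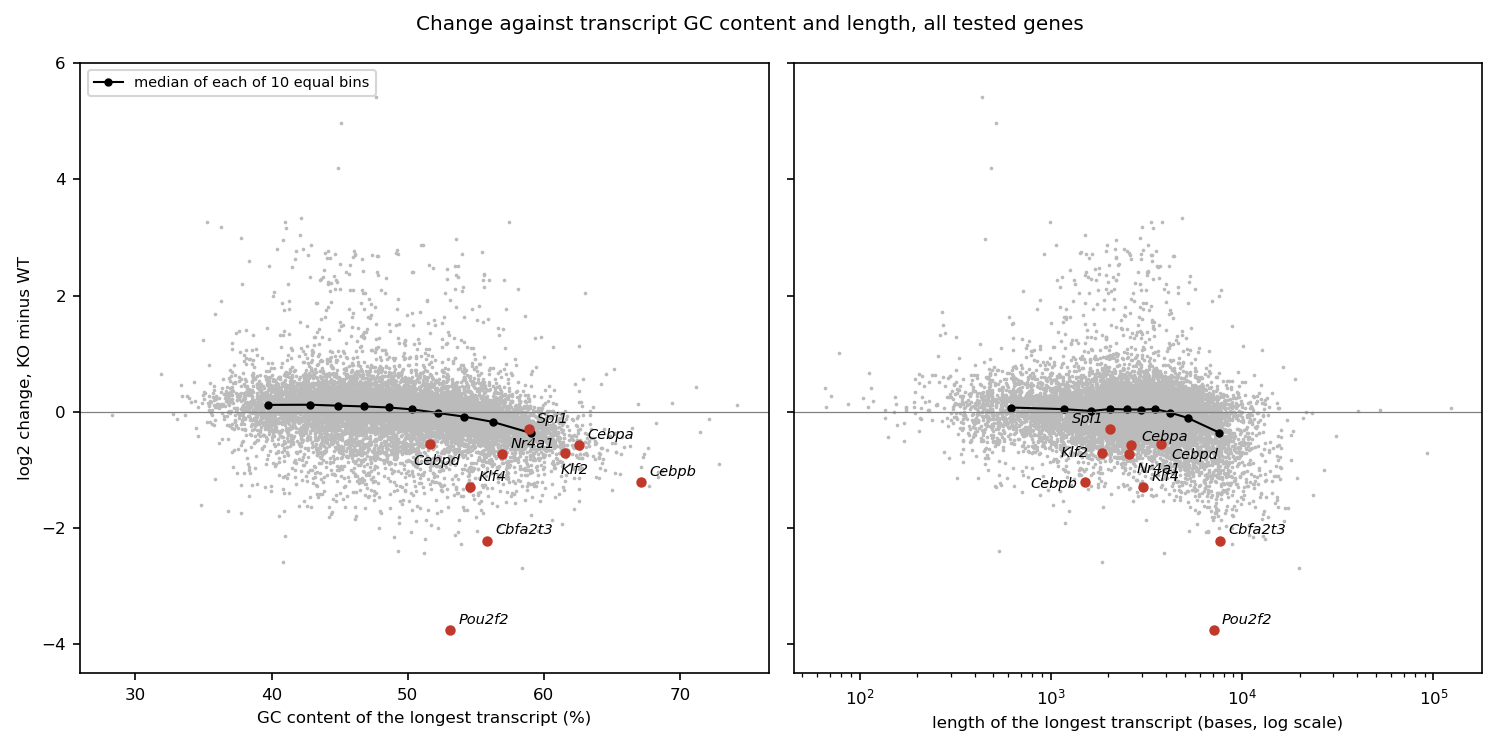
KO minus WT log2 change of every tested gene with a known transcript against the GC content of its longest transcript in percent (left) and its length in bases on a log scale (right). Grey points are genes, the black line joins the medians of 10 equal bins of the tested genes, and red points are the 9 transcription factor genes. Cebpb, Cebpa and Klf2 sit in the GC-rich tail and Pou2f2 and Cbfa2t3 in the long tail, where the medians fall below 0.

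With offsets per library for length and GC content, the changes became smaller to different degrees. Spi1 was then at -0.01 ± 0.11 (SE), Cebpa at -0.08 ± 0.23 and Klf2 at -0.23 ± 0.34, each within its SE of 0. Cebpb was at -0.73 ± 0.16 and Cbfa2t3 at -1.49 ± 0.40. Nr4a1 at -0.54 ± 0.22, Cebpd at -0.54 ± 0.23 and Klf4 at -1.24 ± 0.33 moved by less than their SE. Pou2f2 was at -3.25 ± 0.43. The median of the 9 genes was -0.54 with the offsets, where 52.4% of all genes were below 0. Pou2f2 alone of the 9 was called, and over all genes this fit called 1. Since this contrast chose Pou2f2, nothing is read from that call. The part of length and GC content in the differences without the offsets was not tested beyond this fit.

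**Figure D4:**
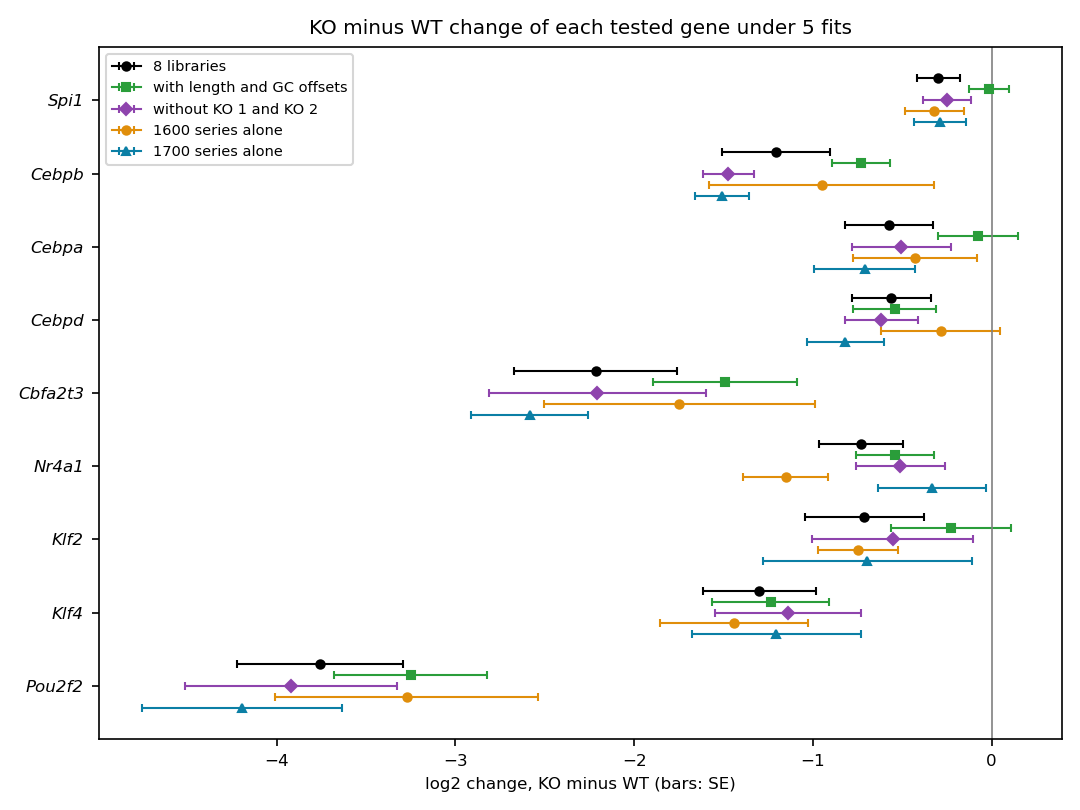
KO minus WT log2 change with SE (bars) of the 9 tested genes in 5 fits: all 8 libraries, with offsets for length and GC content, without KO 1 and KO 2, and within each number series. Every point lies below 0, and the offsets move Spi1 to -0.01 and Cebpa to -0.08.

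By the numbers in their column names, KO 1, KO 2, WT 1 and WT 2 belong to a 1600 series and the other libraries to a 1700 series. What these numbers stand for was not stated. This comparison did not enter the choice of the genes and could be tested. Of the 9 genes, 0 differed between the 1700 and the 1600 series (edgeR, smallest adjusted p = 0.983 for Cbfa2t3), and 0 had an unadjusted p under 0.05. DESeq2 and limma-voom also called 0 of 9. Over all tested genes edgeR called 0, with 583 at an unadjusted p under 0.05, and DESeq2 called 35. The difference of 1700 minus 1600 ranged from -0.23 ± 0.30 for Cebpb to 0.51 ± 0.44 for Cbfa2t3 (SE, log2 scale), and was 0.07 ± 0.12 for Spi1. These errors leave room for differences of the size seen between genotypes in Cebpa and Klf2.

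Within each series all 9 changes of KO minus WT were below 0. Cebpb was at -1.51 ± 0.15 (SE) in the 1700 series and at -0.95 ± 0.63 in the 1600 series, which holds KO 1. In the 1700 series the genes of highest GC content were at -0.35 and -0.24 in KO 3 and KO 4. They were at 0.33 and 0.08 in WT 3 and WT 4. Nr4a1 was at -0.33 ± 0.30 in the 1700 series and at -1.15 ± 0.24 in the 1600 series, and this difference of 0.81 ± 0.43 did not pass (edgeR interaction, adjusted p = 0.394). The interaction was called for 0 of 9 genes, against 0.784% of all tested genes. At an unadjusted p under 0.05 there were 0 of the 9 in edgeR, 0 in DESeq2 and 1 in limma-voom. Over the 11222 tested genes these counts were 1806 in edgeR, 1602 in DESeq2 and 1831 in limma-voom. For Pou2f2 the changes were -4.19 ± 0.56 and -3.27 ± 0.74 in the 1700 and the 1600 series, and for Klf2 -0.70 ± 0.59 and -0.75 ± 0.22.

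Among 6866 tested genes with a mean of at least 5 CPM, those whose levels followed a member most closely over the 8 libraries were found by Pearson's r of log2 CPM. All pairs share libraries, depth and the genotype difference, and the values are descriptions. For Pou2f2 they were Plxnb2 (r = 0.98), a semaphorin receptor gene, Ttc7 (r = 0.98) and Stx16 (r = 0.97), a syntaxin gene. For Cebpb they were Rps4l (r = 0.99), Fam53a (r = 0.98) and Psmb10 (r = 0.98), an immunoproteasome subunit gene that had 384, 249, 296 and 316 CPM in KO 1 to 4 and 438, 409, 454 and 408 CPM in WT 1 to 4. For Nr4a1 they were N4bp2l1 (r = 0.97), Ppp2r1a (r = 0.96), a scaffold subunit of phosphatase 2A, and Fut7 (r = 0.96), which makes selectin ligands. Fut7 averaged 10.2 ± 2.26 CPM in KO and 15.6 ± 5.12 CPM in WT (SD, n = 4 each), and like Nr4a1 it was lowest of the WT libraries in WT 4, at 8.01 CPM.

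Relatives and partners of the 10 genes were read from the same fit. The counts of this and the next lists stand against 20.9% of all tested genes at an unadjusted p under 0.05 in edgeR, in either direction, and against 2.90% called higher and 4.09% called lower in DESeq2. Of 13 tested paralogs among 23, 0 passed (edgeR; 2 at an unadjusted p under 0.05; 2 lower in DESeq2), and their median log2 change was -0.06. The abundant Klf6 had 172 ± 69.6 CPM in KO and 165 ± 36.5 CPM in WT (SD, n = 4 each), and Klf10 had 79.8 ± 27.0 CPM in KO and 75.5 ± 9.58 CPM in WT. Of 23 tested partners and corepressors among 27, 0 passed (7 at an unadjusted p under 0.05; 4 lower in DESeq2), with 17 below 0 and a median of -0.26. Irf8, a partner of PU.1 that monocytes need, had 105 ± 17.3 CPM in KO and 126 ± 28.5 CPM in WT. Lmo2, an adaptor of the ETO2 complexes, had 89.6 ± 18.9 CPM in KO and 115 ± 22.9 CPM in WT. Pou2af1, the B cell coactivator of OCT2, was at 0 counts in all 8 libraries. Of 27 tested other myeloid transcription factors among 33, 0 passed (8 at an unadjusted p under 0.05; 3 lower in DESeq2), with 22 below 0 and a median of -0.33. Id2, an inhibitor of helix-loop-helix factors, had 319 ± 43.1 CPM in KO and 405 ± 192 CPM in WT, and Irf5, an interferon regulatory factor, 233 ± 29.2 CPM in KO and 293 ± 43.1 CPM in WT. limma-voom called 0 genes of any of these lists.

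Known targets of the factors, and the genes that mark the 2 monocyte states, were read in the same way, and again limma-voom called 0. Of 18 tested genes of nonclassical monocytes among 19, 0 passed (edgeR; 7 at an unadjusted p under 0.05; 2 lower in DESeq2), with 16 below 0 and a median of -0.36. Ear2, an eosinophil-type ribonuclease gene, had 376 ± 105 CPM in KO and 423 ± 74.3 CPM in WT, and Adgre4, an adhesion receptor gene, 273 ± 55.3 CPM in KO and 300.3 ± 42.9 CPM in WT. Of 12 genes of classical monocytes, 0 passed (4 at an unadjusted p under 0.05; 2 higher and 1 lower in DESeq2), with a median of 0.14. Chil3, a chitinase-like protein gene, had 33758, 44051, 17380 and 18929 CPM in KO 1 to 4, against 12255, 6823, 11812 and 12297 CPM in WT 1 to 4. Its log2 change of 1.40 was 0.76 without KO 1 and KO 2. Ly6c2, the gene of the sorting antigen, had 5195 ± 791 CPM in KO and 4572 ± 359 CPM in WT.
Of 13 receptor and lysozyme targets of PU.1 and C/EBP factors, 0 passed (2 at an unadjusted p under 0.05; 1 lower in DESeq2), and only 3 were below 0, with a median of 0.13. Lyz2, the lysozyme gene, had 116143 ± 7470 CPM in KO and 105859 ± 8913 CPM in WT. Fcgr3, an Fc receptor gene, had 1733 ± 126 CPM in KO and 1485 ± 318 CPM in WT. Of 3 tested targets of KLF2 and KLF4 among 5, 0 passed in edgeR and in DESeq2 and 0 had an unadjusted p under 0.05. Itgb7, an integrin gene, had 260 ± 63.3 CPM in KO and 298 ± 35.4 CPM in WT, and Cdkn1a, a cell cycle inhibitor gene, 49.1 ± 9.33 CPM in KO and 48.5 ± 17.7 CPM in WT. Granule genes of granulocyte progenitors, the branch that GFI1 favours, had a median log2 change of 2.99 over 6 tested of 10, and 0 passed in edgeR (4 at an unadjusted p under 0.05; 4 higher in DESeq2). Their summed CPM was far higher in KO 1 and KO 2, at 1807 and 3085, than in KO 3 and KO 4, at 166 and 94.6. In WT it was 69.6 to 141. The list also holds the calprotectin genes S100a8 and S100a9. Without KO 1 and KO 2 the log2 change was 1.32 for S100a9, 0.76 for S100a8, 0.77 for Elane and -0.74 for Prtn3.

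Markers of other cell types that express these factors were set beside them. Of 14 B cell markers, 4, among them Pax5 and Ebf1, were at 0 in all 8 libraries, and the sum, nearly all of it Ighm and Cd79b, was 206 to 365 CPM in KO and 183 to 373 CPM in WT. The part of B cells in the difference of Pou2f2 was not tested. The 8 markers of plasmacytoid dendritic cells summed to 97.2 to 145 CPM in KO and 189 to 229 CPM in WT. Most of that sum was Bst2, which also responds to interferon and which fell by 0.71 ± 0.14 on the log2 scale (SE; edgeR adjusted p = 0.0377), while Siglech, the defining marker, was at 0 in all 8 libraries. The 10 conventional dendritic cell markers summed to 1326, 866, 3171 and 3712 CPM in KO 1 to 4 and to 3442 to 4455 CPM in WT, mostly MHC class II genes. The 7 natural killer cell markers summed to 7.32 to 12.3 CPM in KO and 7.57 to 13.1 CPM in WT. Of the 2 tested, Klrk1, a receptor gene, had 5.39, 3.94, 10.7 and 8.78 CPM in KO 1 to 4, against 11.8, 12.2, 9.19 and 6.45 CPM in WT 1 to 4, and did not pass (log2 change -0.45 ± 0.30, SE). Nkg7, a cytotoxic granule gene, passed, higher by 1.92 ± 0.41 (edgeR adjusted p = 0.0433), at 1.67 ± 0.82 CPM in KO and 0.43 ± 0.07 CPM in WT. Over 19 alternative settings, single libraries left out included, Bst2 stayed between -0.77 and -0.59 and did not pass in 10 (adjusted p = 0.000131 to 0.142), and Nkg7 lay between 1.15 and 2.54 and did not pass in 12 (adjusted p = 0.00131 to 0.223). Both did not pass when WT 1, WT 3, WT 4, KO 2 or KO 3 was left out, nor Nkg7 without KO 1. Nonclassical monocyte markers summed to 340 to 528 CPM in KO and 440 to 553 CPM in WT, mostly Adgre4 and Treml4. The 7 nonclassical markers, all in the list of nonclassical genes above, each had a log2 change below 0. Their median was -0.22, and 0 passed (edgeR; 2 at an unadjusted p under 0.05). Progenitor markers summed to 41.3 to 261 CPM in KO and 41.4 to 61.8 CPM in WT. The neutrophil and progenitor sums were highest in KO 2, the library with the lowest levels of 8 of the 9 genes, and next in KO 1, which had the highest Cebpb, Cebpa, Cebpd and Spi1 of the KO libraries. The part of these cells in the results was not tested, beside the fit without KO 1 and KO 2.

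**Figure D5:**
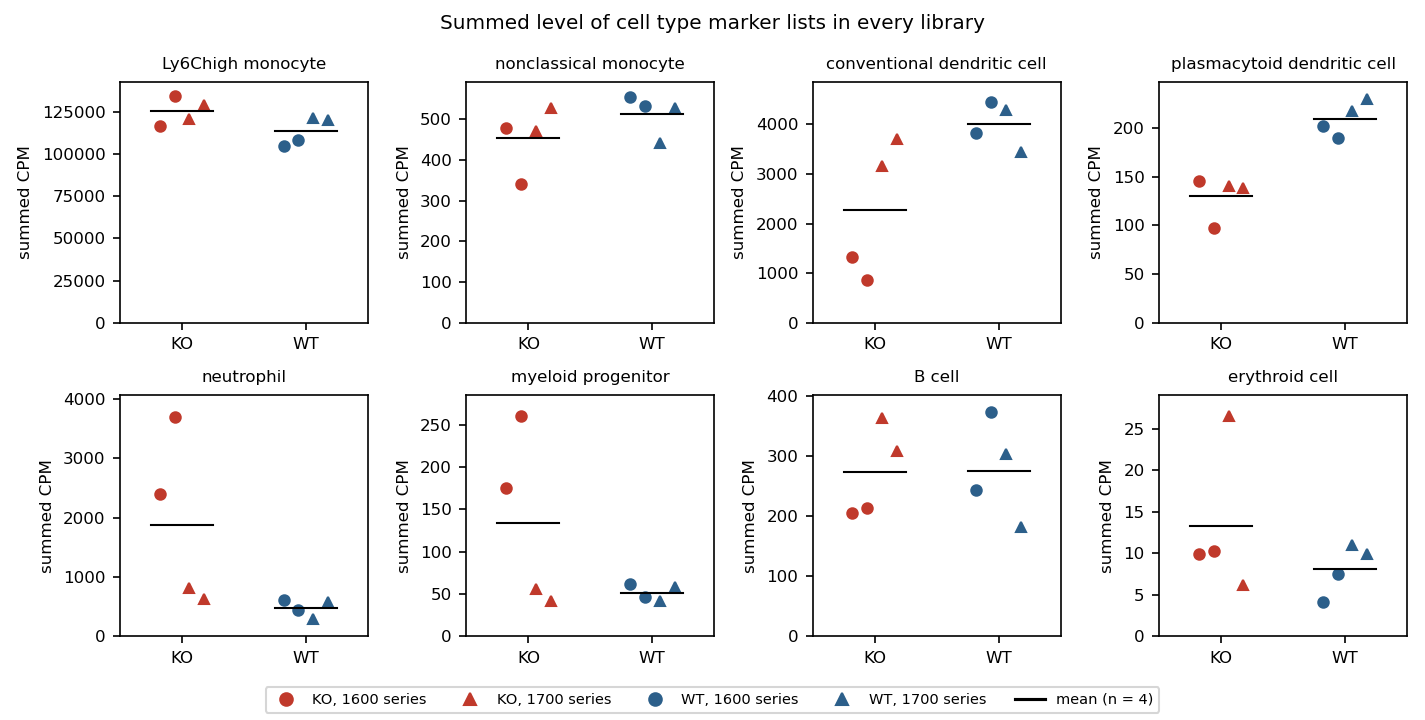
Summed CPM of 8 lists of cell type markers in every library, with KO left of WT and a line at the mean of 4 libraries. Circles are the 1600 number series and triangles the 1700 number series. Neutrophil markers reach 2393 and 3704 CPM in KO 1 and KO 2, and B cell markers overlap between genotypes.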

How the data were processed

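RNA of sorted splenic Ly6Chigh monocytes was made into cDNA by the SMART-Seq v4 kit, as the labels' protocols state. The values used are the raw read counts per gene that the authors deposited as 1 table. Per the submitters' processing notes, the tools were HISAT2 2.0.5 and featureCounts 1.5.0-p3 on build GRCm38. Which annotation release, strand setting or filters they used is not given in the sources at hand. Reads copied by PCR and lacking molecular identifiers are not independent, and floors and intervals therefore cover counting error only. Recovery from an oligo-dT primed, amplified library can vary with transcript length, GC content and RNA quality.

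Counts were tested over all genes with edgeR 4.0.16 (quasi-likelihood, robust, filterByExpr, TMM) in R 4.3.3. P-values were adjusted by Benjamini-Hochberg over the 11222 genes that passed the filter, which held 99.9% of all counts, and 0.05 was the threshold. The fits were KO against WT (the common biological coefficient of variation was 22.4%), the number series with genotype as covariate, and their interaction. CPM used TMM-scaled library sizes, and log2 CPM a prior count of 2. The genes and lists were chosen with earlier results of these data known. Named genes were the 10 genes, the up to 4 genes of each list with the smallest p past 0.05 and its 2 most abundant tested genes, the 3 genes most like Pou2f2, Cebpb and Nr4a1, and the 3 lowest changes beside Pou2f2. Gfi1 was in no likeness search because it was not tested. Alternatives were RLE size factors, no filter, a filter of 1 CPM in 4 libraries, DESeq2 1.42.0, limma-voom (limma 3.58.1), a block of title numbers, the series as covariate, offsets for length and GC content (mgcv 1.9.3), a threshold of 0.1, and single libraries left out. After the data had been seen, fits within each number series were added. Transcript lengths and GC content are from GENCODE on GRCm38, known for 10969 tested genes, and promoters from RefSeq. Scripts were tested on simulated data.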

Additional observations from a re-analysis of the deposited data

Results flagged for a closer look

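In groups of 4 libraries, the library farthest from the others was compared with the range of its group, over 50 groups of values. Of these, 8 stood out, where about 2.5 would by chance if the groups were independent and normally distributed. The groups share libraries, and some lists share genes, so that no excess over chance is read from this. Among the transcription factor genes, WT 4 stood apart with 165 CPM of Cebpd, above the other WT libraries, and with 26.1 CPM of Nr4a1, below them. WT 2 stood apart with 0.98 CPM of Cbfa2t3, below the other WT libraries. Cbfa2t3 is a long gene, and in WT 2 the longest genes as a group were at -0.12 on the log2 scale. They were at 0.27, 0.33 and 0.35 in WT 1, WT 3 and WT 4. KO 1 held the only counts of Gfi1, 0.12 CPM, and with 0 in the other KO libraries any count there would have stood out. Among marker sums, WT 4 stood apart with 1664 CPM of plasma cell markers, mostly Xbp1, and with 378 CPM of red pulp macrophage markers, both above the other WT libraries. KO 1 stood apart with 1.02 CPM of T cell markers and KO 2 with 97.2 CPM of plasmacytoid dendritic cell markers, both below the other KO libraries. The causes were not tested.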

How the results depend on the processing

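All 171 values of the 9 tested genes for KO minus WT under alternative settings were below 0. In 4 of them the value moved by more than the SD between libraries: Pou2f2 at -3.27 within the 1600 series and -3.25 with the offsets, and Cebpa at -0.08 and Spi1 at -0.01 with the offsets. The count of genes called for KO against WT, 119 of 11222, was 742 with no filter on low counts, 784 with DESeq2, 0 with limma-voom (2371 at an unadjusted p under 0.05), 251 with the number series as covariate, 7 without KO 1 and KO 2, 1 with the offsets, 611 at a threshold of 0.1, and 0 to 515 with single libraries left out. Of the 9 genes, 2 were called, against 4 with no filter, 5 with DESeq2, 0 with limma-voom, 0 within the 1600 series, 1 with the offsets, 4 at a threshold of 0.1, and 0 to 3 with single libraries left out. For the number series, no filter gave 231 calls, DESeq2 35, and leave-one-out 0 to 4 (without WT 2), against 0. For the interaction, 88 calls became 645 with no filter, 451 with DESeq2, 57 with limma-voom, 5 with the offsets and 3 (without KO 4) to 628 (without WT 4) with single libraries left out. The title numbers are shared by the genotypes. Around the mean of each genotype, same-numbered libraries correlated at -0.01, -0.03, -0.05 and 0.09 over all tested genes. These values cannot decide whether the libraries were paired, since differences between libraries in other cells, length and GC content enter them too. With the title numbers as a block, 244 genes and 3 of the 9 were called for KO against WT, and 155 for the interaction. For the number series no paired analysis was possible because each title number lies within 1 series. Depth limits Gfi1, Pou2f2 in KO and Cbfa2t3 most.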
